A study of Mus musculus with 3 samples.

Results

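A set of 9 genes used to mark or known to maintain long-term hematopoietic stem cells (LT-HSCs) are described here across 3 microarrays. They are Fgd5, Hoxb5, Ctnnal1, Hlf, Mllt3, Prdm16, Robo4, Pdzk1ip1 and Gprc5c. Every probe that carried one of these gene names was taken, which gave 17 probes of 56600 for 9 genes of 37323. The genes were chosen by name when their signals on these arrays were already known, so all values are given as a description. LT-HSCs sit at the top of the blood lineage tree, rest for most of the time and can rebuild all blood cells after transplantation. A reporter gene is one whose promoter is joined to a fluorescent protein so that the cells that transcribe it can be seen, and Fgd5, Hoxb5, Ctnnal1, Hlf, Pdzk1ip1 and Gprc5c have all served this purpose in mouse stem cell work. Mllt3 and Prdm16 are known for their part in keeping stem cells in a self-renewing state, and Robo4 is a surface receptor of stem cells and blood vessels.

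The study asked what the loss of Atm, a DNA damage kinase, and the further loss of p38α, the stress kinase encoded by Mapk14, do to LT-HSCs. Each of WT, AtmsKO and Atmp38dKO was measured on 1 array of Cy3-labelled RNA, from C57BL/6J bone marrow cells labelled as CD150+CD48-Flt3-CD34- LSK, the lineage-negative, Sca-1+ and c-Kit+ fraction. AtmsKO mice carried floxed Atm and Atmp38dKO mice carried floxed Atm and floxed p38α, in both cases with CAG-CreERT2, a tamoxifen-activated Cre under a promoter that acts in most cell types, so deletion was not limited to blood cells. The series text has tamoxifen given at about 5 weeks of age and analysis 4 weeks later, while the labels give an age of 11 weeks. Controls, called wild-type in the labels, also received tamoxifen and lacked Cre, according to the methods. By the same account they carried floxed alleles too, of Atm alone or of Atm and p38α. The study used both males and females, and neither the sex nor the number of the mice behind each array is known. With 1 array in each group no difference has a replicate check and no p-value is given.

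The targeted genes were read first. At both Atm probes the AtmsKO array was below WT, by a log2 difference of -2.37 and -1.79, and the Atmp38dKO-labelled array was below WT by -1.07 and -0.22. The Atmp38dKO-labelled array was thus above AtmsKO by 1.30 and 1.57 and showed only part of the Atm loss seen there. The reason for this was not tested. At the Mapk14 probes the Atmp38dKO-labelled array was above WT by 0.18 and 0.01, so it did not show the loss of Mapk14 signal that its label names. Whether these probes lie within the deleted exons was not determined here, so the Mapk14 values do not settle the genotype. AtmsKO against WT is the comparison that does not use this array. Of all probes, 68.9% to 77.7% were well above background, the median signal was 20.7 to 26.3 intensity units, and no spot was saturated. All 3 arrays were on 1 slide and scanned together. Kit and Ly6a, which encode the c-Kit and Sca-1 antigens of the sort, and Slamf1, which encodes CD150, were well above background on every array. So were Cd34, Flt3 and Cd48, whose products the sort selected against, although Cd48 reached only 17.2, 22.4 and 29.3 units in WT, AtmsKO and Atmp38dKO.

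The probes on which the results turn are shown by their own letters, written 5′ to 3′ in the sense of the message, because each value below belongs to the place in the transcript that the probe reads. Each probe is 60 bases long. For Fgd5, Hoxb5 and the brightest Ctnnal1 probe the first 30 bases are given, and for the other Ctnnal1 probes and 1 Mllt3 probe the whole probe, since these probes of 1 message read different stretches of it. Positions are those the scanner files list on mouse genome build mm9. Exon and UTR annotation of that build was not used here.
Fgd5, brighter probe (chr6:92025710-92025769, plus strand): ttgaagttctttttcaatgtttttgcagtc
Fgd5, dimmer probe (chr6:92024840-92024899, plus strand): acgtggaaaccaagtgaaaaagacacttat
Hoxb5, the single probe (chr11:96167130-96167189, plus strand): taggccccacaaggcctagtctggaagcgt
Ctnnal1, probe 1, the brightest (chr4:56823874-56823933, minus strand): ctgtaaaagaccatcaaatatgtggcaaca
Ctnnal1, probe 2 (chr4:56854434-56854493, minus strand): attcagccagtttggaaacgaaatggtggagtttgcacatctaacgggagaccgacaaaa
Ctnnal1, probe 3 (chr4:56825409-56826051, minus strand): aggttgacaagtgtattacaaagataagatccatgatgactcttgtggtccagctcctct
Ctnnal1, probe 4 (chr4:56842427-56842486, minus strand): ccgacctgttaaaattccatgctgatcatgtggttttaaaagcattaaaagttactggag
Mllt3, probe 2 (chr4:87487048-87487107, minus strand): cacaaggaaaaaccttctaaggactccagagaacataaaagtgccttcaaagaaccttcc

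The probes of both genes with the largest differences are thus few. Hoxb5 was read by 1 probe, and the Fgd5 probes lie within 930 bases of each other. The Ctnnal1 probes spread over 30620 bases of the genome, and probe 3 has a listed span longer than the probe itself, as a probe across a splice junction has. The Mllt3 probes spread over 67193 bases. Hlf, Prdm16 and Robo4 were also read by 1 probe each, and Pdzk1ip1 and Gprc5c by 2 each. The GC content of the 17 probes ranged from 35% to 53.3%, against a median of 41.7% over all probes. The polyadenylation signal AATAAA, searched on the probe strand alone, was present in 2 of the 17, the dimmer Pdzk1ip1 probe and the dimmer Gprc5c probe, and in 9.77% of all probes.

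Signals below are background-subtracted intensity units multiplied so that every array has the 75th percentile of the WT array, and ± gives the scanner software's own error of that signal, set largely by a fixed 10% of the signal. A log2 difference is the difference of 2 such scaled signals on the log2 scale, its SE is made from those 2 errors, and it covers the hybridisation alone, not mice or sorts. A gene is represented by its brightest probe unless stated otherwise. A gene or probe is counted as lower or higher if it differed at least 2-fold and was well above background on the brighter array. Because probes bind with different strength, levels are compared between arrays and never between genes.

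Of the 9 genes 8 were well above background on all 3 arrays at their brightest probe, and Gprc5c was not. Against WT, Fgd5 and Hoxb5 were at least 2-fold lower on the Atmp38dKO-labelled array and no gene was at least 2-fold higher, which is 2 of 9 lower beside a background of 4.46% lower and 3.98% higher over all genes. On the AtmsKO array none of the 9 was at least 2-fold lower or higher than WT, where the background was 4.04% lower and 3.86% higher. Between the Atmp38dKO-labelled and AtmsKO arrays, Fgd5, Hoxb5 and Ctnnal1 were at least 2-fold lower on the former and none higher, beside a background of 3.64% lower and 3.72% higher. Among probes of like brightness, with 30 to 300 units on the brighter array, 5.13% were at least 2-fold lower than WT on the Atmp38dKO-labelled array, and 4.02% were lower than AtmsKO. The plot of signal by array shows the levels behind these counts.

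**Figure D1:**
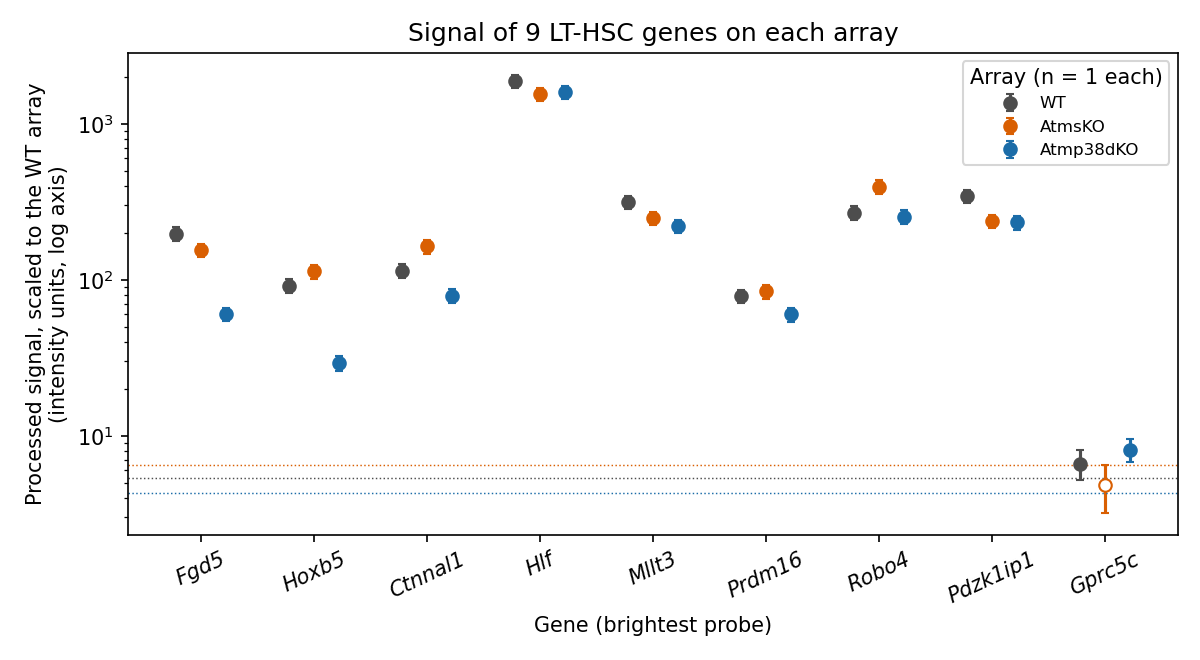
Scaled processed signal (intensity units, log axis) at each gene's brightest probe, with 1 array for each of WT, AtmsKO and the Atmp38dKO label. Bars are the scanner software's error, open circles are signals not well above background, and dotted lines mark the lowest signal well above background on each array. Fgd5 and Hoxb5 stand apart, with their Atmp38dKO-labelled points at 60.1 and 29.3 units, below both other arrays.

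Hoxb5, a homeobox transcription factor of the HoxB cluster, gave 91.4 ± 9.24 units on WT, 113 ± 11.4 on AtmsKO and 29.3 ± 3.12 on the Atmp38dKO-labelled array. The WT and AtmsKO signals lay close and the Atmp38dKO-labelled one was low. The log2 difference was -1.64 ± 0.21 (SE) against WT, a 3.12-fold lower signal, and -1.95 ± 0.21 against AtmsKO, a 3.86-fold lower signal. AtmsKO differed from WT by 0.31 ± 0.21, within 2 SE. With the normexp background model, which adds a constant to every signal, the difference from WT shrank to -0.80 and fell short of 2-fold, and that from AtmsKO was -1.01.

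Of the other 9 genes of the HoxB cluster, transcription factors that stand side by side on chromosome 11, 6 were above background on WT or on the Atmp38dKO-labelled array, with 1 at least 2-fold lower, none higher and a median log2 difference of -0.20. The lower gene was Hoxb6, with 84.3 units on WT, 24.6 on AtmsKO and 23.6 on the Atmp38dKO-labelled array, so it was low on both mutant arrays, unlike Hoxb5. Hoxb2 gave 47.7, 19.7 and 61.9 units in the same order and was low on AtmsKO alone. Hoxb4, known for enlarging the stem cell pool when overexpressed, gave 31.6, 35.8 and 37.9 units, and no difference reached 2-fold. The neighbours of Hoxb5 therefore did not share 1 order across the arrays.

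Hlf, a PAR bZIP transcription factor that keeps stem cells at rest, gave 1870 ± 187 units on WT, 1549 ± 155 on AtmsKO and 1594 ± 159 on the Atmp38dKO-labelled array. The log2 differences from WT were -0.27 ± 0.20 for AtmsKO and -0.23 ± 0.20 for the Atmp38dKO-labelled array, both within 2 SE. Of the 8 genes well above background on all arrays, Hlf was the single one whose lowest signal was on AtmsKO. The mutant arrays differed there by only 0.04 ± 0.20. Its PAR bZIP relatives Dbp and Tef did not differ 2-fold between any arrays. Nfil3, a bZIP repressor that binds the same sites, gave 117, 110 and 46.2 units on WT, AtmsKO and the Atmp38dKO-labelled array, a log2 difference of -1.35 between the last and WT.

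Prdm16, a zinc-finger regulator of stem cell maintenance, gave 78.6 ± 7.95, 84.2 ± 8.55 and 59.98 ± 6.07 units on WT, AtmsKO and the Atmp38dKO-labelled array. The last was lowest, by -0.39 ± 0.21 against WT, within 2 SE, and by -0.49 ± 0.21 against AtmsKO, beyond 2 SE. The span that the files list for this probe is shorter than the probe, so no position is given. Of 12 measured genes of the PRDM family outside Prdm16, 1 was at least 2-fold lower on AtmsKO than on WT and 2 on the Atmp38dKO-labelled array, and none was higher. Prdm8, a PRDM repressor studied mainly in neurons, gave 217, 10.7 and 13.3 units, log2 differences of -4.34 and -4.03 from WT. Prdm9, the factor that places meiotic recombination sites, gave 156, 98.3 and 69.7 units. Mecom, a PRDM-family factor needed by LT-HSCs, gave 221, 233 and 158 units at its brightest probe, a log2 difference of -0.48 between the Atmp38dKO-labelled array and WT. At 5 Mecom probes that difference ran from -0.48 to 1.40, so its probes did not share a direction.

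Mllt3 encodes AF9, a reader of acylated histones that links the super elongation complex and DOT1L to active genes. At its brightest probe (chr4:87419915-87419974) it gave 314 ± 31.4 units on WT, 249 ± 24.9 on AtmsKO and 220 ± 22.04 on the Atmp38dKO-labelled array, with log2 differences from WT of -0.34 ± 0.20 and -0.51 ± 0.20. Probe 2, shown whole above, was level across the arrays at 204, 206 and 200 units. Probe 3, which the files assign to an Ensembl transcript, gave 47.1, 31.2 and 49.5 units and was low on AtmsKO alone. The lower signal of the brightest probe on the Atmp38dKO-labelled array was thus not shared by the rest of the gene, and the mean over its probes was -0.16 against WT. Of 17 genes of the super elongation and DOT1L complexes, all measured, 1 was at least 2-fold higher on AtmsKO than on WT and 1 lower on the Atmp38dKO-labelled array. The higher gene was Ell3, an elongation factor, with 18.7, 45.1 and 21.1 units. The lower gene was Ell2, of the same family, with 677, 390 and 313 units.

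Fgd5 encodes a guanine nucleotide exchange factor that activates Cdc42 and marks both LT-HSCs and endothelial cells. Its brighter probe gave 198 ± 19.8 units on WT, 155 ± 15.5 on AtmsKO and 60.1 ± 6.08 on the Atmp38dKO-labelled array. The signal on the last was lower by a log2 difference of -1.72 ± 0.20 against WT, 3.29-fold, and by -1.36 ± 0.21 against AtmsKO, 2.57-fold. AtmsKO against WT was -0.36 ± 0.20, within 2 SE. The dimmer probe gave 15.3 units on WT and signals not well above background on the other arrays, of 3.22 on AtmsKO and 5.30 on the Atmp38dKO-labelled array. WT was therefore at least 2.37-fold higher than AtmsKO and at least 2.88-fold higher than the Atmp38dKO-labelled array there, and no order between those 2 arrays can be read from it. A bound of this kind sets the signal against the lowest signal well above background on the dim array, or against the dim signal itself where that is larger. The probes thus placed the Atmp38dKO-labelled array below WT alike, and differed in where they placed AtmsKO. Under normexp the brighter probe kept a difference of -1.18 from WT, while that from AtmsKO became -0.88 and fell short of 2-fold.

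Of 6 further genes, the FGD exchange factors and Cdc42 itself, 5 were measured, and on the Atmp38dKO-labelled array 2 were at least 2-fold higher than on WT and none lower. Fgd1 gave 51.7, 80.3 and 133 units on WT, AtmsKO and the Atmp38dKO-labelled array, and Fgd2 gave 30.05, 42.8 and 89.7 units. At their brightest probes both were highest where Fgd5 was lowest, while the other measured genes of this list did not differ 2-fold between any arrays.

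Ctnnal1 encodes alpha-catulin, an alpha-catenin-like protein whose reporter marks a small set of bone marrow cells rich in stem cells. Its brightest probe gave 114 ± 11.51 units on WT, 163 ± 16.4 on AtmsKO and 78.9 ± 7.94 on the Atmp38dKO-labelled array. Probe 2 gave 66.3, 71.9 and 43.8 units, probe 3 gave 56.5, 72.1 and 43.3, and probe 4 gave 57.2, 41.9 and 44.5. Against WT the Atmp38dKO-labelled array was lower at all 4 probes, with log2 differences from -0.60 to -0.36, and those of probes 1 and 2 were beyond 2 SE. Between the Atmp38dKO-labelled and AtmsKO arrays the differences were -1.05, -0.71, -0.73 and 0.09, so probes 1 to 3 had 1 direction and probe 4 did not, and the brightest alone passed 2-fold. AtmsKO was above WT at 3 probes and below it at probe 4, by -0.45 ± 0.21. With the mean over all probes the difference between the mutant arrays was -0.60, and under normexp -0.69, both short of 2-fold. Of 4 genes for the alpha-catenins, which tie cadherins to actin, and for beta-catenin, 3 were measured for AtmsKO against WT and 4 in the other comparisons, and none differed 2-fold.

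**Figure D2:**
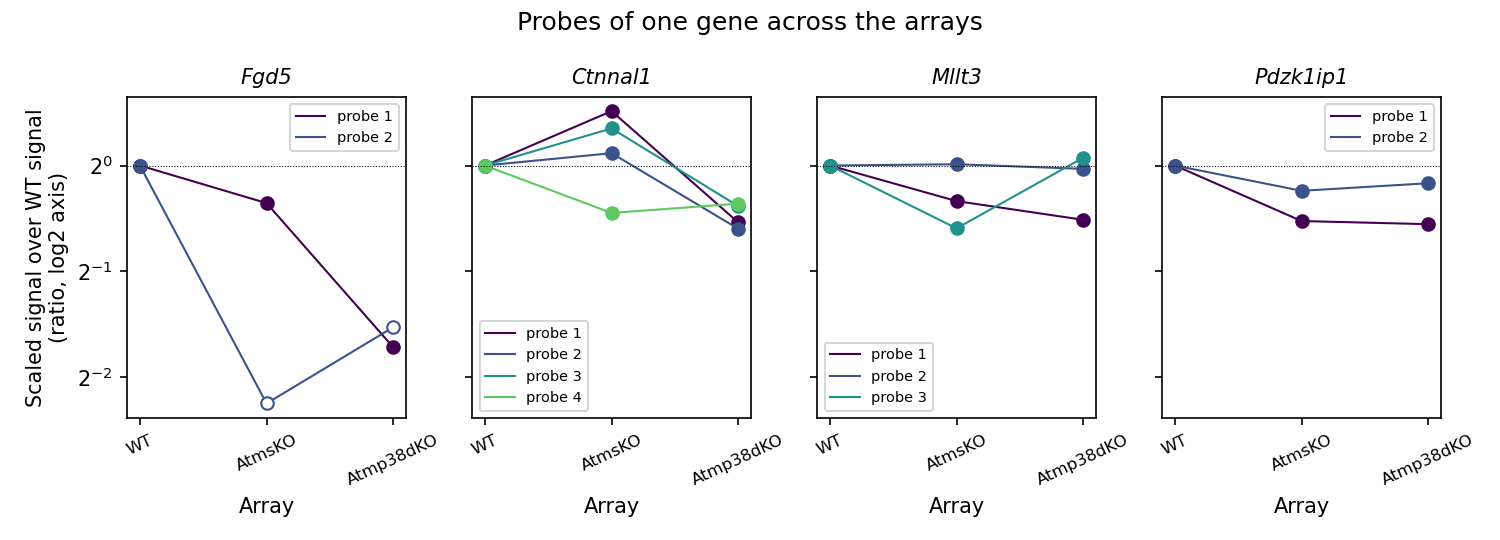
Scaled signal of each probe divided by its WT signal (ratio, log2 axis) on the 3 arrays, for Fgd5, Ctnnal1, Mllt3 and Pdzk1ip1. Open circles are signals not well above background, and the probes of Ctnnal1 meet below 1 on the Atmp38dKO-labelled array while those of Mllt3 part.

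Robo4, a receptor of the roundabout family that aids stem cell homing and vessel stability, was the gene with the highest AtmsKO signal relative to WT. It gave 270 ± 27.0 units on WT, 396 ± 39.6 on AtmsKO and 253 ± 25.3 on the Atmp38dKO-labelled array (chr9:37221537-37221596). AtmsKO was above WT by 0.55 ± 0.20 and the Atmp38dKO-labelled array was below AtmsKO by -0.65 ± 0.20, both beyond 2 SE and neither 2-fold. The difference between the Atmp38dKO-labelled array and WT was -0.09 ± 0.20. Of 7 genes for the other Robo receptors, their Slit ligands and the netrin receptor gene Unc5b, 6 were measured, and on AtmsKO 2 were at least 2-fold higher than on WT. They were Robo3, a receptor of axon guidance, with 12.5, 33.8 and 13.6 units, and the ligand Slit3, with 14.1, 45.7 and 12.4 units. Both were highest on AtmsKO, as Robo4 was. The ligand Slit1 gave 6.28, 7.92 and 14.3 units and was highest on the Atmp38dKO-labelled array.

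Pdzk1ip1 encodes MAP17, a small membrane protein that binds PDZ-domain scaffolds. Its brighter probe (chr4:114763787-114763846) gave 343 ± 34.3 units on WT, 238 ± 23.9 on AtmsKO and 233 ± 23.4 on the Atmp38dKO-labelled array. Both mutant arrays were below WT, by -0.52 ± 0.20 and -0.55 ± 0.20, beyond 2 SE, and differed from each other by -0.03. The dimmer probe had the same order against WT with smaller differences of -0.24 and -0.17, both within 2 SE. The 3 genes for PDZK1 and NHERF scaffolds did not differ 2-fold in any comparison.

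Gprc5c, an orphan receptor of the retinoic acid-inducible GPRC5 family, was near background. Its brighter probe gave 6.63 ± 1.44 units on WT and 8.17 ± 1.36 on the Atmp38dKO-labelled array, and 4.83 ± 1.62, not well above background, on AtmsKO. The dimmer probe was well above background on the Atmp38dKO-labelled array alone, at 4.56 units. The difference between the Atmp38dKO-labelled array and WT at the brighter probe was 0.30 ± 0.40, within 2 SE. No order of the arrays could be read for this gene at this signal. Of 11 genes for the rest of the GPRC5 family and for retinoic acid receptors and enzymes, Cyp26b1, which breaks down retinoic acid, gave 46.3, 20.8 and 20.7 units and was at least 2-fold lower on both mutant arrays than on WT. Cyp26a1, an enzyme of the same kind, went the other way on AtmsKO, with 15.8 units there, at least 2.96-fold above WT and at least 3.08-fold above the Atmp38dKO-labelled array, on both of which it was not well above background. Gprc5b gave 69.2, 128 and 157 units and was at least 2-fold higher on the Atmp38dKO-labelled array.

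**Figure D3:**
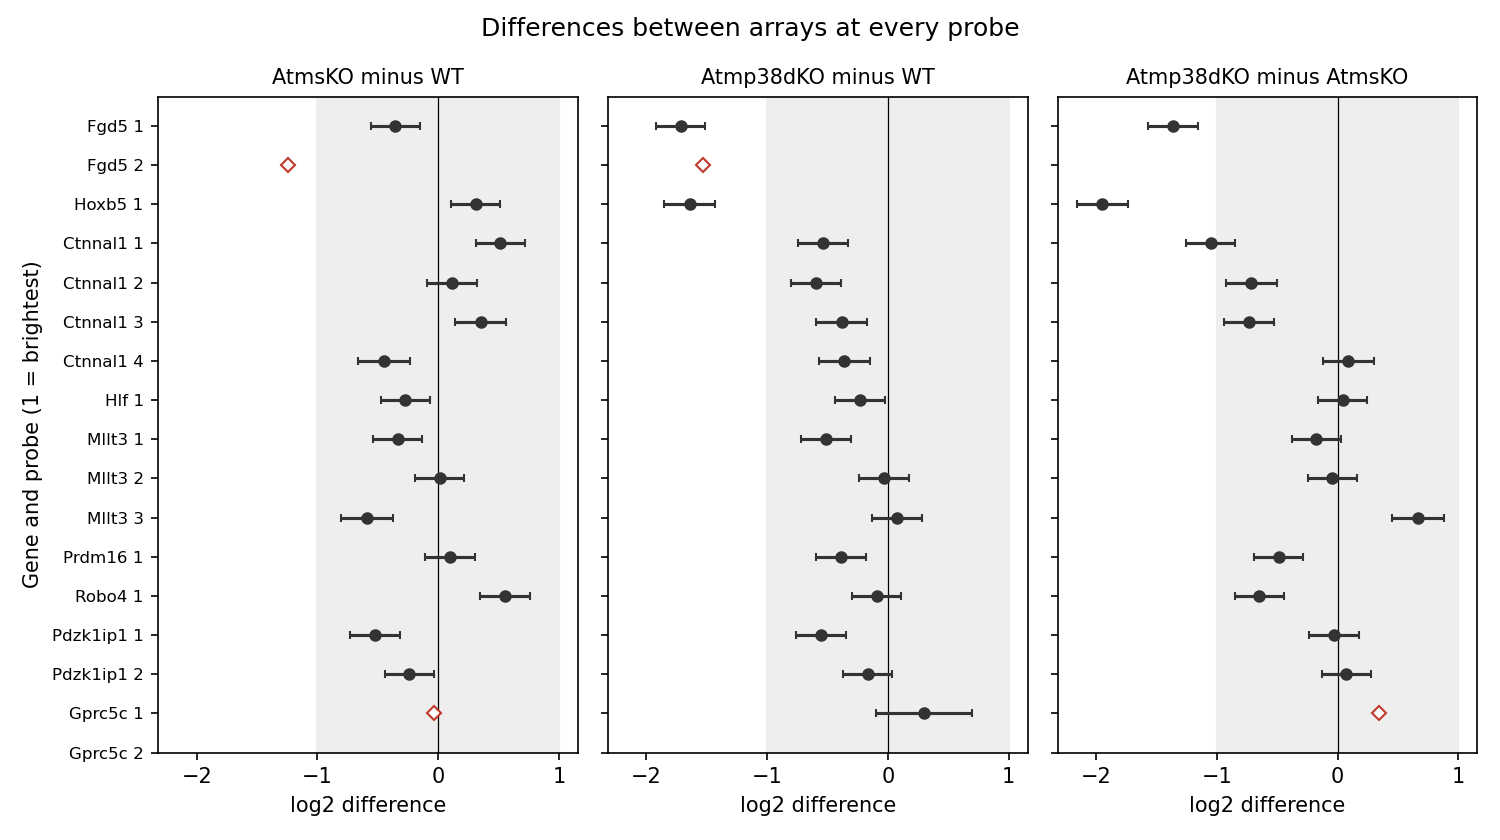
Log2 difference of each of the 17 probes for the 3 comparisons. Filled points have both arrays well above background, with bars of 1 SE from the scanner error, open diamonds are bounds, and grey marks differences under 2-fold. A probe with no point was not well above background on either array, or its bound ran against the order of its signals. The latter holds for the dimmer Gprc5c probe in both comparisons that use the Atmp38dKO-labelled array. In the comparison of the Atmp38dKO-labelled array with WT, 13 of 15 measured probes lie below 0, of which 4 read the same gene, Ctnnal1.

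Taken over all 17 probes, 14 were measured on both arrays of the AtmsKO and WT pair, and 7 lay below 0 and 7 above. Of these, 3 were lower and 2 higher by more than 2 SE, beside 13.2% and 13.1% of all probes measured on both arrays. For the Atmp38dKO-labelled array against WT, 13 of 15 lay below 0, and 6 probes were lower by more than 2 SE and none higher. Over all probes measured on both arrays, 14.4% were lower and 14.6% higher by more than 2 SE, so the scanner error is exceeded by many probes of the array. Between the Atmp38dKO-labelled and AtmsKO arrays, 10 of 14 lay below 0, with 7 lower and 1 higher by more than 2 SE, beside 13.2% and 13.3% of all probes. The median log2 difference of all probes was 0.003, 0.02 and -0.002 in these comparisons, in the order given. Probes of 1 gene are not separate members, and all 4 Ctnnal1 probes are among the 13 below WT, so counts by gene follow. By gene, 8 of 9 were below 0 on the Atmp38dKO-labelled array against WT, beside 47.8% of all genes. For AtmsKO against WT it was 5 of 9, beside 49%, and between the mutant arrays 7 of 9, beside 50.5%. The 5 include Gprc5c, whose value there is a bound. The 7 include Mllt3 and Pdzk1ip1, which lay above 0 with the mean of all probes.

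The median log2 difference of the 9 genes was -0.04 for AtmsKO against WT, -0.51 for the Atmp38dKO-labelled array against WT and -0.49 between the last and AtmsKO. Over all genes these medians were 0.01, 0.02 and -0.005. The first median of the 9 genes, -0.04, is the value of Gprc5c, which is a bound and not a measured difference. The 8 genes measured on both of those arrays had a median of -0.09. The comparisons share arrays, so a low signal on the Atmp38dKO-labelled array enters the last 2 alike. Of the 8 genes well above background everywhere, 7 were lowest on the Atmp38dKO-labelled array, 1 (Hlf) on AtmsKO and none on WT. Of all such genes, 33.3%, 31% and 35.7% were lowest there. For Mllt3, Pdzk1ip1 and Hlf the Atmp38dKO-labelled array differed from AtmsKO by -0.18, -0.03 and 0.04, all within 2 SE. Which mutant array was lowest is thus not settled for these genes. With the mean of all probes this difference was 0.15 for Mllt3 and 0.02 for Pdzk1ip1. The range over the arrays exceeded the all-gene median of 0.38 log2 in 7 of the 8. Hoxb5 at 1.95, Fgd5 at 1.72 and Ctnnal1 at 1.05 also exceeded the 90th percentile of 1.04. Where a gene had several probes, their differences from WT on the Atmp38dKO-labelled array spread over a median of 0.53 log2 across all genes, more than most of the differences between -0.55 and 0 seen here.

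**Figure D4:**
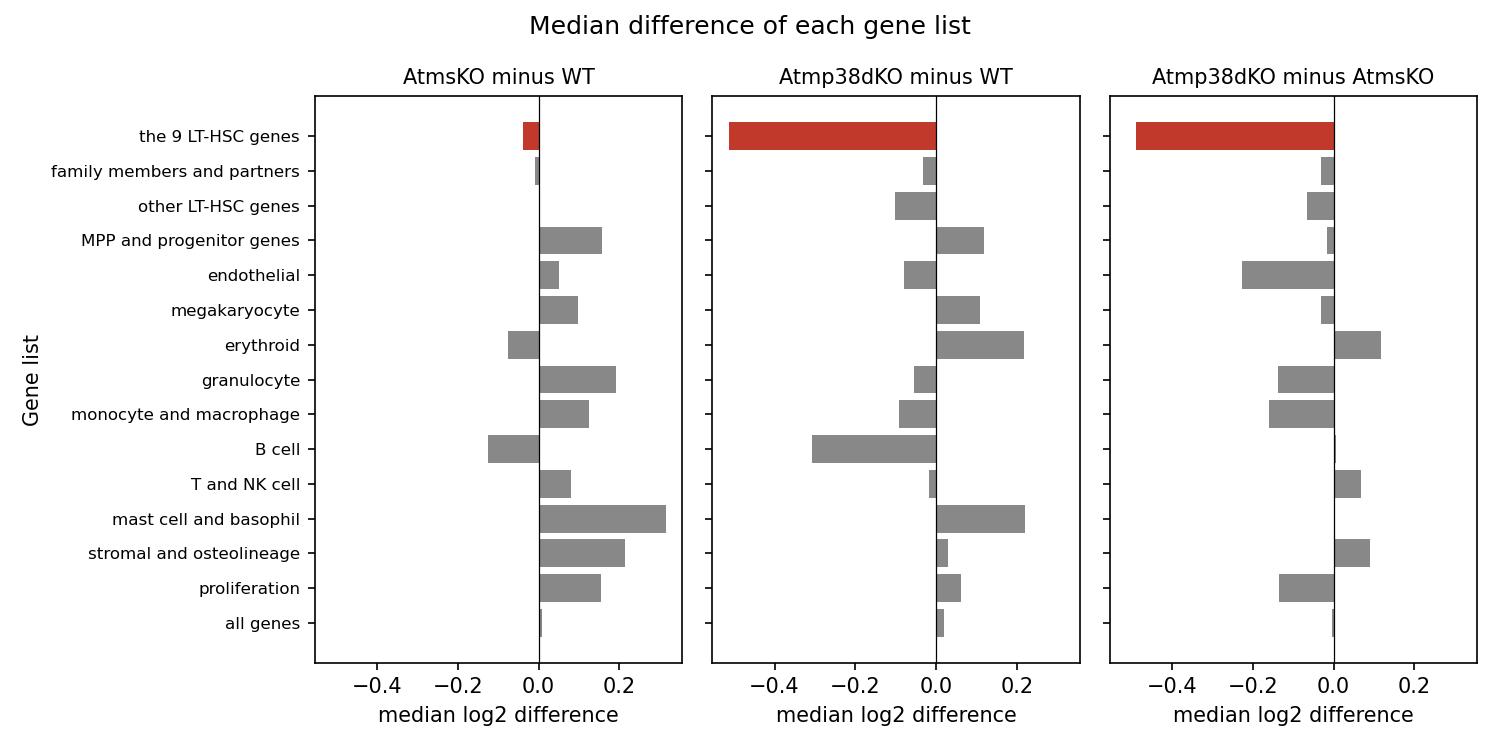
Median log2 difference of each gene list for the 3 comparisons, with the 9 LT-HSC genes in red and other lists in grey. The 9 genes have medians of -0.51 and -0.49 in the comparisons that use the Atmp38dKO-labelled array and -0.04 without it. That last value is a bound, for Gprc5c. The lists differ in size and a median of few genes varies more.

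The other lists give the setting. The 73 family members and partners of the 9 genes had 66 measured genes in each comparison, of which 4 were at least 2-fold lower and 4 higher on AtmsKO against WT, 6 and 4 on the Atmp38dKO-labelled array against WT, and 5 and 2 between the last and AtmsKO. Their medians were -0.01, -0.03 and -0.03. Of 71 other genes known for their expression in LT-HSCs, 70 were measured. On AtmsKO 5 were at least 2-fold lower and 2 higher than on WT, on the Atmp38dKO-labelled array 3 lower and none higher, and the medians were 0.001 and -0.10. Of the 70, 35 lay below 0 and 35 above on AtmsKO against WT, and 41 and 29 on the Atmp38dKO-labelled array. Procr, a surface marker of LT-HSCs, gave 546, 554 and 387 units on WT, AtmsKO and the Atmp38dKO-labelled array. Other surface markers of the list had other orders, with 147, 103 and 122 units for Slamf1 and 267, 246 and 295 for Thy1. Meg3, an imprinted noncoding RNA of LT-HSCs, gave 140, 12.7 and 11.3 units, and Ndn, an imprinted gene that restrains proliferation, 255, 76.4 and 170 units. Tcf15, a factor of quiescent LT-HSCs, gave 18.6, 67.7 and 24.2 units, and Vwf, a marker of platelet-biased stem cells, 102, 206 and 162 units. The immediate early genes Egr1 and Zfp36 were lowest on the Atmp38dKO-labelled array, with log2 differences of -1.46 and -1.12 from WT.

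Fgd5 and Robo4 are also endothelial genes, so markers of endothelial cells are given beside them. Of 26 such genes 17, 17 and 18 were well above background on WT, AtmsKO and the Atmp38dKO-labelled array, with summed signals of 2461, 2541 and 2324 units. Tek, Tie1 and Esam of this list are also in the list of other LT-HSC genes, so these values do not measure endothelial cells alone. Cdh5, a defining endothelial cadherin, was not well above background on any array. Pecam1 and Emcn of the same list were so on every array, with 134, 96.2 and 107 units and with 203, 141 and 138 units. On the Atmp38dKO-labelled array Plvap and Vcam1 were at least 2-fold lower than on WT and Kdr higher, and the list's median was -0.08. Between the Atmp38dKO-labelled and AtmsKO arrays Kdr, Sox18 and Plvap were at least 2-fold lower on the former and none higher, 14 of 20 measured genes lay below 0, and the median was -0.23. Kdr, a VEGF receptor, gave 5.88, 120 and 15.6 units at 1 probe and was not well above background at its other 2 probes on any array. Progenitor genes were above background in 20 of 23 cases on each array, with sums of 6482, 6306 and 6387 units. Within these sums Csf1r gave 2530, 2171 and 2147 units and Cd34 gave 1694, 1758 and 1883. The median of the list was 0.12 on the Atmp38dKO-labelled array against WT. All 36 proliferation genes were measured, with medians of 0.15 and 0.06 against WT and none past 2-fold. Over the lists of megakaryocyte, erythroid, granulocyte, macrophage, B cell, T and NK cell, mast cell and stromal genes, the medians of the Atmp38dKO-labelled array against WT ran from -0.31 for B cell genes to 0.22 for mast cell and basophil genes. Megakaryocyte genes summed to 4108, 5469 and 4103 units. The highest sum, on AtmsKO, rests on Pf4, which alone gave 1020, 2497 and 1323 units. The medians of this list against WT were 0.10 for AtmsKO and 0.11 for the Atmp38dKO-labelled array. The part of other cell types in the signals of the 9 genes was not tested, and fewer cells of a type cannot be told apart from less RNA per cell in these bulk samples.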

How the data were processed

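RNA from sorted LT-HSCs of 3 genotypes was hybridized to 3 Agilent arrays in 1 colour. Array work was outsourced by the authors, and the deposited scanner files hold intensity values per spot from Agilent Feature Extraction 11.5.1.1, background-subtracted within the array and not normalized between arrays. The authors also deposited log2 values, which followed log2 of the processed signal minus the array's 75th percentile within 0.02 for at least 99.8% of probes once shifted by their median. They carry no floor and served as an alternative. Flag columns per spot were read as deposited.

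Control spots and outlier spots (57, 75 and 83 on WT, AtmsKO and Atmp38dKO) were left out, spots of a probe were averaged, and a probe counted as detected (well above background) with over 50% of its spots flagged so. The measure was log2 of the processed signal minus the array's 75th percentile. Undetected signals were set to the lowest detected signal of their array, or kept where larger. This scaling leaves relative levels only, so a change in RNA per cell is not seen. A gene was its brightest probe, and it was measured if well above background on at least 1 of the arrays compared. RefSeq accessions (GRCm38.p6, names only) named 32994 of 56605 probes. Of the 17 probes 16 mapped to the same symbol, and the other was assigned to an Ensembl transcript. The members and gene lists were chosen with earlier results of these data known. Text names all 9 members, Atm, Mapk14, Mecom and Hoxb4, and from other lists at most 3 genes a direction and comparison past 2-fold. Sort antigens, Cdh5, Pecam1, Emcn, Csf1r, Plvap, Sox18, Tek, Tie1, Esam, Cyp26a1, Unc5b, Procr, Thy1, Dbp and Tef were named after their values were seen. Python 3.11.15, numpy 2.4.6, pandas 2.3.3, R 4.3.3 and limma 3.58.1 (normexp, offset 50) were used, and the counting was tested on simulated data. With 3 arrays, precision is limited by their number. The mean of all probes, quantile normalization, median centring, other folds, no floor and stricter detection were the alternatives.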

Additional observations from a re-analysis of the deposited data

How the results depend on the processing

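Of 75 alternatives for the counts and medians of the 9 genes, 62 left the value within its bounds and 13 moved it. Of the alternatives for single genes, 175 left the value within its error, 12 moved it and none reversed a called value. Some values not called changed sign. Between the mutant arrays Mllt3 went from -0.18 to 0.15 and Pdzk1ip1 from -0.03 to 0.02 with the mean of all probes. Gprc5c changed sign under some setting in every comparison. For AtmsKO against WT the median of -0.04 became 0.071 with quantile normalization, 0.10 with the mean of all probes and -0.27 both with the deposited log2 values and with no floor, so it has no settled sign. For the Atmp38dKO-labelled array against WT, the 2 lower genes became 0 at 4-fold and 1 (Fgd5) with normexp, and the median of -0.51 became -0.33 with normexp and -0.36 with the mean of all probes. Between the Atmp38dKO-labelled and AtmsKO arrays, the 3 lower genes became 0 at 4-fold and 1 (Hoxb5) both with normexp and with the mean of all probes, and the median of -0.49 became -0.31 with normexp and -0.57 with genes well above background on both arrays. The cause was not tested, apart from the following points. A 4-fold limit asks for more by construction, the mean adds dimmer probes, and the constant that normexp adds shrinks log2 differences. Without a floor the Gprc5c difference of AtmsKO from WT went from -0.04 to -0.46, and Hlf, at -0.27, became the median gene. No scaling moved the median of all genes past 0.07. No paired analysis was possible because there is a single array to a genotype and nothing was tested, and for the same reason no array could be left out. Near background, where Gprc5c and the dimmer Fgd5 probe lie, a difference rests on few intensity units.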
